A study of Caenorhabditis elegans with 30 samples.

Results

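The fatty acid oxidation families of Caenorhabditis elegans were taken as the protein-coding genes whose WormBase symbol starts with acdh-, acox-, cpt-, hacd-, ech-, kat- or maoc-. This rule gave 39 members out of 46748 genes in the count table, of which 19641 are protein-coding, and it used no measured value. The members are 13 acdh, 7 acox, 6 cpt and 10 ech genes, with hacd-1, kat-1 and maoc-1 as the single genes of their names. The 30 libraries, 3 per group, hold RNA of whole N2 (wild-type) hermaphrodites aged 5 days. In all groups the animals were given RNAi bacteria, either with a clone against 1 gene or with L4440, a feeding vector that carries no insert. Titles begin with ZK or RM, and the labels do not say what these letters stand for. The ZK set holds the treatments R186.7, ZK795.1, C01A2.5 and M04C9.5 with their own L4440 libraries (L4440_ZK), and the RM set holds F25H2.5, F55H2.6, R04E5.10 and F26D12.1 with theirs (L4440_RM). Whether the 3 libraries of 1 group are separate cultures is not stated, so the p-values measure the spread between these libraries, which may be technical.

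Fatty acids are broken down by beta-oxidation, a repeated cycle that removes acetyl-CoA from the chain. In mitochondria, carnitine palmitoyltransferases (cpt) pass long chains across the membranes, acyl-CoA dehydrogenases (acdh) make the first double bond, enoyl-CoA hydratases (ech) add water, a hydroxyacyl-CoA dehydrogenase step follows, and a thiolase such as KAT-1 cuts the chain. In peroxisomes the first step is made by acyl-CoA oxidases (acox), followed by the hydratase MAOC-1, the dehydrogenase DHS-28 and the thiolase DAF-22. In worms the peroxisomal cycle also trims the side chains of the ascaroside pheromones. ACDH-1 and ECH-6 serve in addition in the propionate shunt, a route that breaks down propionate without vitamin B12, and acdh-1 is known for its strong response to diet.

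Values are read counts in CPM, that is, relative to the scaled total of the library, and differences are log2 fold changes ± standard error against the L4440 group of the same prefix, with n = 3 libraries in each group. Rose and fell are used of members with an adjusted p under 0.05, from the quasi-likelihood test of edgeR with the adjustment of Benjamini and Hochberg over all genes tested. All 39 members passed the filter on low counts. Library totals were 31835911 to 44987307 counts, and the members together took 0.295% to 0.399% of them. The replicate spread of a typical gene, as the biological coefficient of variation, was 5.42% in the ZK set and 11.7% in the RM set. Whole animals were sequenced, so fewer cells of a type and less RNA per cell cannot be told apart.

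The targeted transcripts were measured first. They fell in 5 treatments, with log2 fold changes of -2.58 for pnn-1 (R186.7), -0.62 for ipmk-1 (ZK795.1), -1.96 for tads-1 (C01A2.5), -4.46 for ndk-1 (F25H2.5) and -1.08 for clu-1 (F55H2.6). Reads of dyf-5 were instead higher by 4.75 in the libraries labelled M04C9.5, and reads of ifd-1 were higher by 2.01 in the libraries labelled R04E5.10, so both go against the direction the label implies. For fkh-7, the target of F26D12.1, the log2 fold change was 0.23 ± 0.15 (adjusted p = 1.0). Among the members, F26D12.1 replicates 1 and 3 lay farthest from the other libraries of their group, with a median absolute log2 difference over the 39 genes of 0.293 and 0.288, and L4440_RM replicate 3 followed at 0.175.

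In the L4440_ZK libraries the members differed widely in level, from 207 CPM per kilobase of exon for ech-6 to 0.178 for acdh-6. The genes of the mitochondrial cycle made up the top of that order. After ech-6 came ech-1.2, which resembles the alpha subunit of the mitochondrial trifunctional protein, at 189.8 ± 7.90 CPM per kilobase. Then followed acdh-3 at 159.5 ± 8.17, acdh-1 at 156.9 ± 11.7, acdh-12 at 146.1 ± 2.01, cpt-1, the carnitine palmitoyltransferase of the outer membrane, at 135.3 ± 5.30, and kat-1 at 110.7 ± 8.45 (CPM per kilobase, mean ± SD). Of the 38 neighbouring pairs in this order, 18 had overlapping ranges of mean ± SD, acdh-3 and acdh-1 among them. The acyl-CoA oxidases were lower, from 29.6 CPM per kilobase for acox-1.5 to 0.253 for acox-1.3. The lowest 5 members, acdh-5, acdh-2, acox-1.3, acdh-8 and acdh-6, averaged under 1 CPM in L4440_ZK libraries. The L4440_RM libraries had ech-6, acdh-1 and ech-1.2 at the top, and the ranges of mean ± SD overlapped in 28 of the 38 neighbouring pairs there.

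Within 2000 bp of another member sit 10 of the members, in 6 neighbouring pairs. The genes acox-1.1, acox-1.2, acox-1.3 and acox-1.4 stand in a row on the same strand of chromosome I, from 12938555 to 12954003 in WBcel235, with gaps of 52, 343 and 34 bp. On chromosome X, acdh-10 and acdh-7 are adjacent on the same strand, from 17213144 to 17217105. On chromosome II, acdh-12 and maoc-1 lie 634 bp apart on opposite strands, and ech-9 and ech-8 are 1296 bp apart on chromosome IV. Strand was not kept by the kit, so reads cannot be assigned where a member overlaps a gene on the other strand. The overlap is 92 bp between acdh-3 and knl-2, 123 bp between ech-3 and F43H9.3, and 105 bp between maoc-1 and E04F6.6. On the same strand, acdh-2 shares 87 bp with ins-13.

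**Figure D1:**
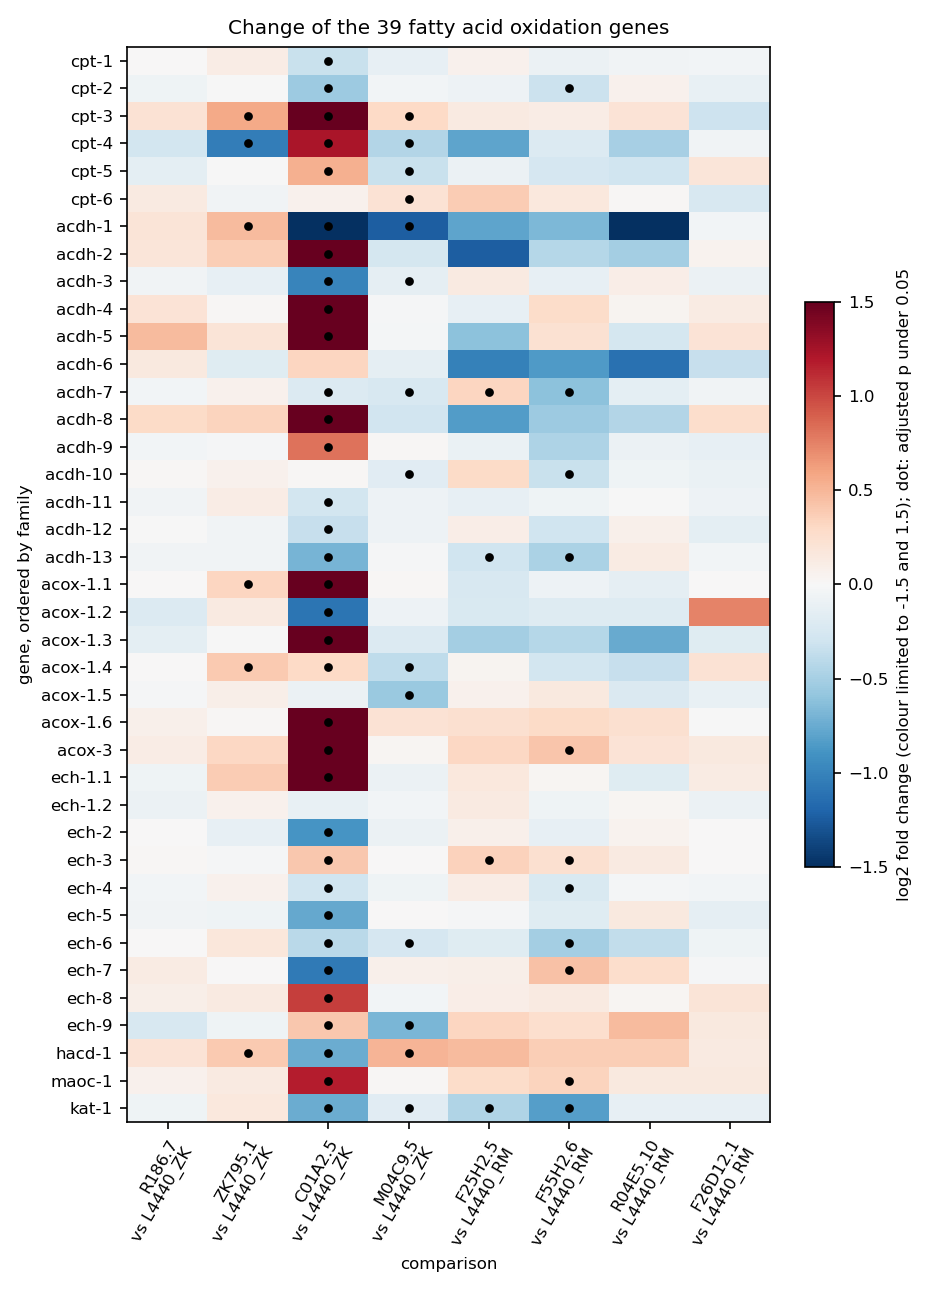
Log2 fold change of each of the 39 genes (rows, by family) in the 8 RNAi comparisons (columns), each against the L4440 libraries of the same prefix, n = 3 libraries per group. Colour is limited to -1.5 and 1.5, and a dot marks an adjusted p under 0.05. C01A2.5 has 34 dots, and R186.7, R04E5.10 and F26D12.1 have 0.

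Without C01A2.5, 22 of the 39 members passed the test in at least 1 of the other 7 RNAi comparisons, with 35 calls in all, and 17 passed in none of them. Of the 15513 genes tested in both sets, 40.8% passed in at least 1 of the same 7 comparisons. Only acdh-6 and ech-1.2 passed in 0 of all 8 comparisons, which include C01A2.5, where 88.1% of all genes tested passed. Within the ZK set without C01A2.5, 19 members varied among R186.7, ZK795.1, M04C9.5 and L4440_ZK, which is 48.7% of the members beside 27.8% of all genes tested. Within the RM set 12 members varied among the 5 groups, 30.8% beside 32.7% of all genes. The same test gave 9 and 23 members with the spread estimated from all 30 libraries, and DESeq2 gave 19 and 20. The shares of all genes under these settings were not counted, so these counts cannot be set beside them. The thiolase gene kat-1 fell in 4 of the 8 comparisons and rose in 0. Its call in libraries labelled M04C9.5 was lost under 5 of the 14 alternative settings. Its falls in F25H2.5 and F55H2.6 libraries were measured against the same L4440_RM libraries. Of the members, 8 rose in 1 comparison and fell in another. The shares of all genes with such patterns over the 8 comparisons were not counted.

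**Figure D2:**
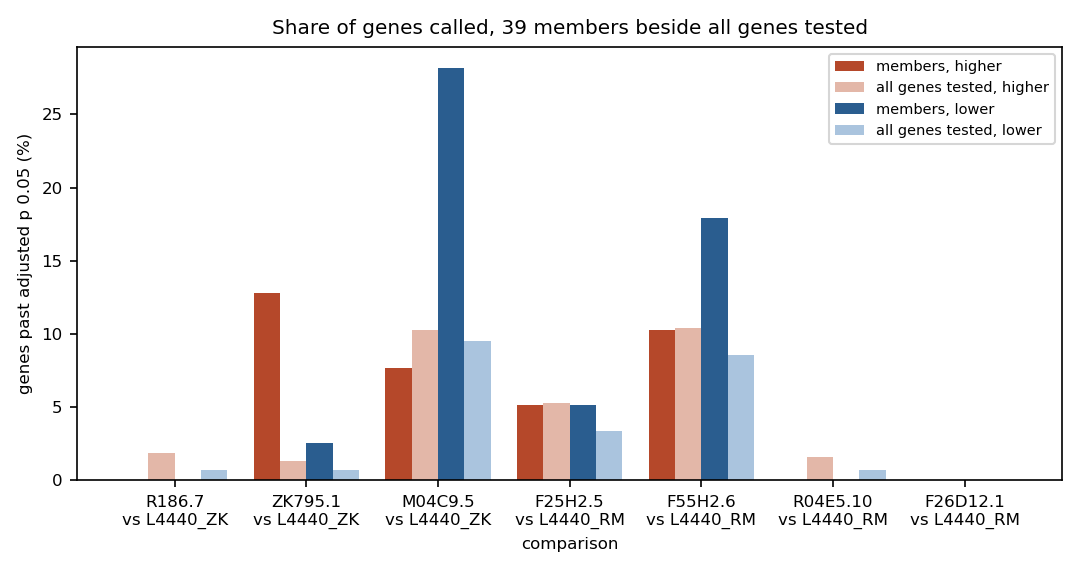
Percent of genes past an adjusted p of 0.05 in each direction (vertical axis), for the 39 members beside all genes tested, in the 7 RNAi comparisons other than C01A2.5. Among libraries labelled M04C9.5, 28.2% of the members were lower, beside 9.5% of all genes, and in ZK795.1 12.8% of the members were higher, beside 1.31% of all genes.

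In the libraries labelled M04C9.5 the members were mostly lower. There 11 members fell and 3 rose, which is 28.2% and 7.69% of the 39, beside 9.5% of all genes lower and 10.3% higher (19.8% in either direction). The median log2 fold change of the members was -0.08, and 29 of them lay below the all-gene median. Scaling by library totals gave 8 lower and 4 higher, beside 4.74% of all genes lower and 16.2% higher. Relative log expression factors gave 13 and 3, beside 16.8% and 8.77%. DESeq2 gave 14 and 2, beside 18.3% and 7.82% of the genes with an adjusted p, and the fit of all 30 libraries gave 5 and 1, beside 3.98% and 6.82%. The acyl-CoA dehydrogenase gene acdh-1, at chromosome I 6497436 to 6499560, had 113.7, 105 and 116 CPM in libraries labelled M04C9.5, against 250.3, 254 and 286 CPM in L4440_ZK libraries. Every library labelled M04C9.5 was below every L4440_ZK library, and acdh-1 fell by 1.24 ± 0.10 on the log2 scale (adjusted p = 4.06e-07). The acyl-CoA oxidase gene acox-1.5 had 43.2, 39.8 and 42.1 CPM in libraries labelled M04C9.5, against 57.5, 63.9 and 63.6 CPM in L4440_ZK libraries. It fell by 0.56 on the log2 scale, ± 0.06 (adjusted p = 6.17e-08), with no overlap between the groups. Its family member acox-1.4 fell by 0.38 ± 0.08 (adjusted p = 0.000624), with 14.5, 14.1 and 12.4 CPM in libraries labelled M04C9.5, against 18.7, 16.4 and 18.2 CPM in L4440_ZK libraries.

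The hydratase of the propionate shunt, ech-6, had 184.9, 170.3 and 173 CPM in libraries labelled M04C9.5, against 202, 205 and 223 CPM in L4440_ZK libraries (-0.25 ± 0.05, adjusted p = 0.000815). The neighbours acdh-7 and acdh-10 fell by 0.24 ± 0.06 and 0.17 ± 0.05, and ech-9 fell by 0.68 ± 0.17. Smaller falls were found for cpt-4 (-0.44), cpt-5 (-0.33), kat-1 (-0.17) and acdh-3 (-0.14). The rise of hacd-1, named for the hydroxyacyl-CoA dehydrogenase step, went the other way. It had 119, 105 and 102 CPM in libraries labelled M04C9.5, against 72.2, 74.8 and 81.9 CPM in L4440_ZK libraries (0.51 ± 0.07, adjusted p = 1.04e-06). The other rises were cpt-6 (0.22 ± 0.06) and cpt-3 (0.30 ± 0.09). Of the 14 calls, those of acdh-1, acox-1.5, acox-1.4, hacd-1, acdh-7 and ech-9 held under each of the 14 alternative settings, and that of ech-6 under all but the fit of all 30 libraries (adjusted p = 0.12). The remaining 7 were lost under at least 1 setting.

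Other genes of the pathway were measured beside them in the libraries labelled M04C9.5, where 9.5% of all genes fell and 10.3% rose. Of the 9 genes listed for propionate and methylmalonate breakdown, 4 fell and 0 rose. They were hphd-1, the hydroxypropionate dehydrogenase of the shunt (-0.69 ± 0.10), hach-1, the hydrolase before it (-0.26 ± 0.06), and the propionyl-CoA carboxylase genes pcca-1 (-0.18 ± 0.05) and pccb-1 (-0.15 ± 0.05). Of 20 peroxisomal genes 5 fell and 1 rose, with pmp-5, an ABC transporter gene, at -0.61 ± 0.08. Of 9 fatty acid binding protein genes 3 fell and 1 rose, with lbp-8 at -1.27 ± 0.15, lbp-6 at -0.44 ± 0.05 and lbp-1 at 0.73 ± 0.09. Of 21 acyl-CoA synthetase genes 5 fell and 4 rose, and of 12 regulator genes sbp-1 (-0.27 ± 0.07) and nhr-68 (-0.20 ± 0.07) fell. NHR-68 is a known activator of acdh-1. Summed oocyte markers were 9704 to 10081 CPM in libraries labelled M04C9.5, against 10520.1 to 11853 CPM in L4440_ZK libraries, with 3 of 8 lower. Summed body wall muscle markers were 686 to 738 CPM, against 824 to 885 CPM in L4440_ZK libraries, with 4 of 7 lower. Intestine markers, from the main site of fat storage in the worm, were 571 to 698 CPM, against 632 to 722 CPM in L4440_ZK libraries, with 2 of 8 lower. Epidermis markers were 105 to 113.7 CPM, against 120.5 to 126 CPM in L4440_ZK libraries, with 1 of 7 higher and 1 lower. The part of these markers in the result was not tested.

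ZK795.1 libraries, from animals given the ipmk-1 clone, had 5 members higher and 1 lower. That is 12.8% and 2.56% of the members, beside 1.31% of all genes higher and 0.679% lower (1.99% in either direction). With the spread estimated from all 30 libraries, 0 members passed, beside 0.0949% of all genes higher and 0.166% lower. The carnitine palmitoyltransferase family gene cpt-4 had 2.495, 2.31 and 2.68 CPM in ZK795.1 libraries, against 6.01, 5.13 and 4.35 CPM in L4440_ZK libraries. The groups did not overlap, and cpt-4 fell by 1.04 ± 0.13 on the log2 scale (adjusted p = 3.47e-06). Its paralogue cpt-3 had 12.2, 11.1 and 11.4 CPM in ZK795.1 libraries, against 8.38, 7.44 and 7.59 CPM in L4440_ZK libraries (0.57 ± 0.09, adjusted p = 0.000199). So 2 genes of 1 family moved in opposite directions in the same animals.

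The dehydrogenase gene hacd-1 had 90.7, 102 and 107 CPM in ZK795.1 libraries, against 72.2, 74.8 and 81.9 CPM in L4440_ZK libraries (0.39 ± 0.07, adjusted p = 0.000482). The oxidase gene acox-1.4 had 22.9, 21.8 and 25.3 CPM in ZK795.1 libraries, against 18.7, 16.4 and 18.2 CPM in L4440_ZK libraries (0.39 ± 0.08, adjusted p = 0.0022). Its neighbour acox-1.1 had 22.8, 22.9 and 19.5 CPM in ZK795.1 libraries, against 18.0, 16.6 and 17.4 CPM in L4440_ZK libraries (0.32 ± 0.07, adjusted p = 0.00683). Each of these 3 genes was higher in every ZK795.1 library than in any L4440_ZK library. The shunt gene acdh-1 had 342, 406 and 349 CPM in ZK795.1 libraries, against 250.3, 254 and 286 CPM in L4440_ZK libraries (0.47 ± 0.10, adjusted p = 0.0189). Apart from the fit of all 30 libraries, 4 of the 6 calls held under every setting, and those lost elsewhere were acdh-1 and acox-1.1. The count was 8 without ZK795.1 replicate 3 and 4 without L4440_ZK replicate 2, with the shares of all genes not counted.

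Beside acdh-1, the later shunt genes alh-8, a semialdehyde dehydrogenase gene (0.29 ± 0.06, adjusted p = 0.00196), and hphd-1 (0.47 ± 0.09, adjusted p = 0.0139) rose in ZK795.1 libraries, 2 of the 9 genes of that list. Among the fatty acid binding genes lbp-8 (0.73 ± 0.12) and lbp-6 (0.18 ± 0.05) rose, and nhr-114 (0.33 ± 0.08) was the only one of 12 regulators to do so. Of the peroxisomal list 0 of 20 genes passed the edgeR test, beside 1.99% of all genes. Intestine markers summed to 766 to 833 CPM in ZK795.1 libraries, against 632 to 722 CPM in L4440_ZK libraries, with 1 of 8 higher and 1 lower. Muscle markers summed to 964 to 1099 CPM in ZK795.1 libraries, against 824 to 885 CPM in L4440_ZK libraries, with 1 of 7 higher. The part of both in the result was not tested. Compared directly, ZK795.1 libraries had 15 members higher and 2 lower than the libraries labelled M04C9.5, 43.6% of the members beside 24.6% of all genes (13.3% higher, 11.3% lower). The 15 include acdh-1 (1.71 ± 0.10), acox-1.4 (0.77 ± 0.08), acox-1.5 (0.65 ± 0.06), ech-6 (0.43 ± 0.05), kat-1 (0.33 ± 0.05) and cpt-1 (0.24 ± 0.05). The 2 lower were cpt-4 (-0.60 ± 0.14) and cpt-6 (-0.26 ± 0.06). R186.7 libraries, compared with ZK795.1 libraries in the same way, had 1 member higher and 6 lower, beside 3.45% of all genes higher and 5.06% lower (8.51% in either direction), with kat-1 at -0.22 ± 0.05 and cpt-4 at 0.77 ± 0.13.

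R186.7 libraries, in which pnn-1 fell, showed no member past the edgeR test against L4440_ZK. The count was 0 of 39, beside 2.55% of all genes (1.86% higher, 0.691% lower), with 6 members at an unadjusted p under 0.05. With DESeq2 it was also 0, beside 1.93% higher and 3.61% lower of the genes with an adjusted p. Without a filter on low counts the count of members was 2, with the share of all genes not counted. The closest was hacd-1, with 85.6, 82.0 and 94.4 CPM in R186.7 libraries, against 72.2, 74.8 and 81.9 CPM in L4440_ZK libraries (0.20 ± 0.07, adjusted p = 0.124). Intestine markers summed to 747 to 776 CPM in R186.7 libraries, against 632 to 722 CPM in L4440_ZK libraries, with 0 of 8 called. Summed markers of the other lists overlapped between these groups. Compared directly, R186.7 libraries had 6 members higher and 1 lower than libraries labelled M04C9.5, beside 9.41% of all genes higher and 7.57% lower (17.0% in either direction). The gene acdh-1 was higher by 1.43 ± 0.10 in R186.7 libraries, and hacd-1 was the lower one (-0.31 ± 0.06).

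**Figure D3:**
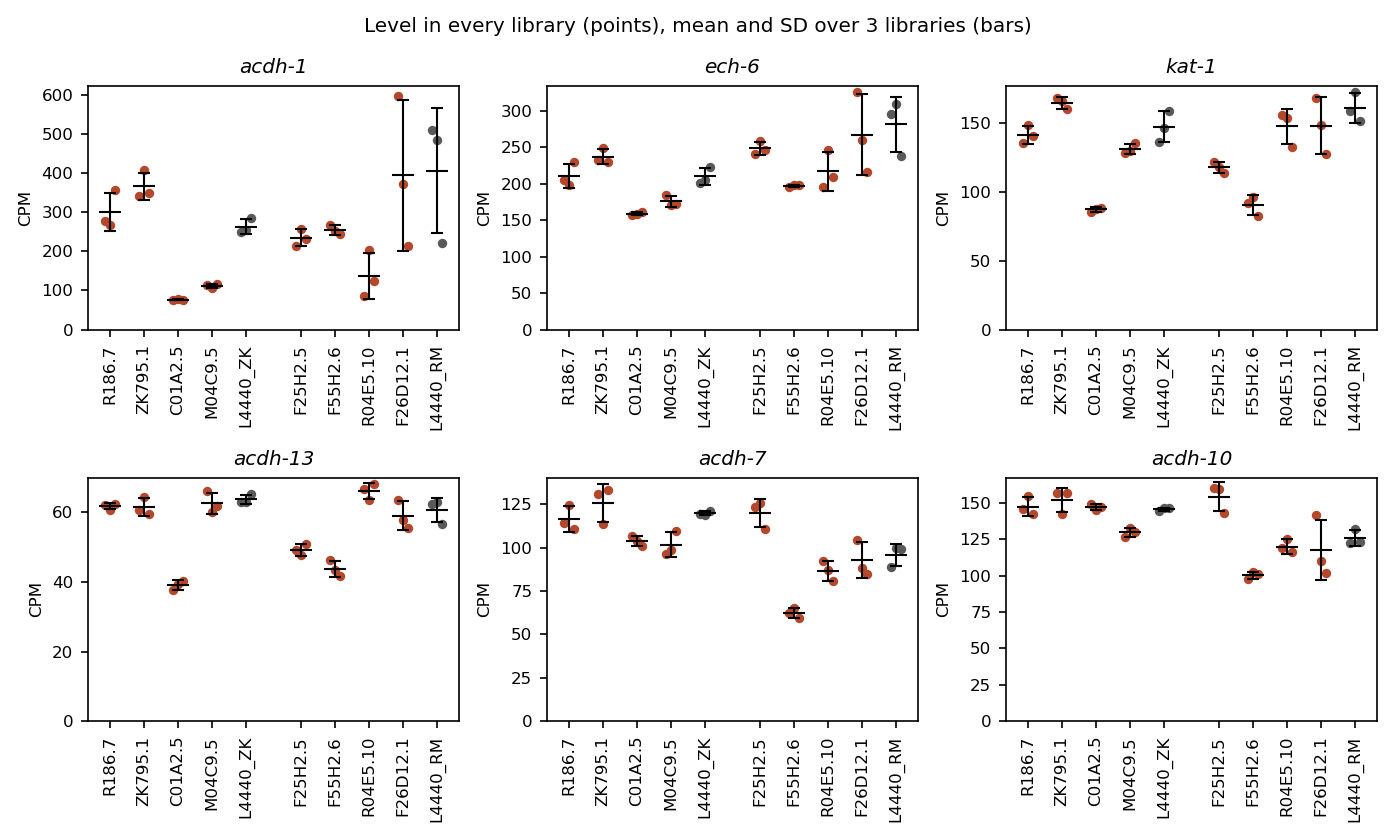
CPM of 6 members in each library (points), with the mean and SD of 3 libraries as bars, for the 4 RNAi groups left of their L4440 group in each set (RNAi in red, L4440 in grey). The 3 F55H2.6 libraries have 82.6 to 96.5 CPM of kat-1, below the 151 to 172 CPM of the L4440_RM libraries, and acdh-1 spreads from 221 to 510.4 CPM among the L4440_RM libraries themselves.

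F55H2.6 libraries, with clu-1 lowered, had 7 members lower and 4 higher. That is 17.9% and 10.3% of the members, beside 8.54% of all genes lower and 10.4% higher (18.9% in either direction). The thiolase gene kat-1, on chromosome II at 7073814 to 7075511, had 91.7, 96.5 and 82.6 CPM in F55H2.6 libraries, against 159, 172 and 151 CPM in L4440_RM libraries. It fell by 0.83 ± 0.09 on the log2 scale (adjusted p = 2.23e-05), with a wide gap between the groups. The acyl-CoA dehydrogenase gene acdh-7 had 62.4, 65.5 and 59.6 CPM in F55H2.6 libraries, against 88.6, 99.8 and 99.1 CPM in L4440_RM libraries (-0.62 ± 0.08, adjusted p = 0.00014). Its family member acdh-13 had 46.3, 43.4 and 41.7 CPM in F55H2.6 libraries, against 62.5, 63.1 and 56.8 CPM in L4440_RM libraries (-0.47 ± 0.07, adjusted p = 0.000285). The calls of kat-1, acdh-7 and acdh-13 held under each of the 14 alternative settings.

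Further falls in F55H2.6 libraries were smaller. They were ech-6, with 195.6, 198.6 and 197.9 CPM in F55H2.6 libraries, against 296, 309 and 239 CPM in L4440_RM libraries (-0.51 ± 0.13, adjusted p = 0.0141), and cpt-2, the inner-membrane carnitine palmitoyltransferase gene, with 187.0, 174 and 179 CPM in F55H2.6 libraries, against 228, 229 and 214.5 CPM in L4440_RM libraries (-0.32 ± 0.08, adjusted p = 0.00949). For both, every F55H2.6 library was below every L4440_RM library. The hydratase-family gene ech-4 (-0.23 ± 0.06) and acdh-10, the neighbour of acdh-7 (-0.33 ± 0.09), fell too. The rises were maoc-1, the peroxisomal hydratase gene (0.33 ± 0.11), acox-3 (0.42 ± 0.14), ech-3 (0.24 ± 0.08) and ech-7 (0.44 ± 0.14, with overlapping libraries), at adjusted p of 0.0393 to 0.0456. These 4 rises depend on the setting. With relative log expression factors the split was 0 higher and 10 lower, beside 8.46% of all genes higher and 11.8% lower. It was 4 and 4 with library totals, beside 14.7% and 3.45%, and 3 and 10 with DESeq2, beside 8.77% and 16.3% of the genes with an adjusted p. With only the 6 libraries compared it was 0 and 6, beside 6.32% and 3.18%. The total was 6 without L4440_RM replicate 2, and 7 without L4440_RM replicate 1, F55H2.6 replicate 1 or F55H2.6 replicate 3. With a library left out, the share of all genes was not counted.

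In the pathway lists F55H2.6 libraries had 3 of 8 other mitochondrial oxidation enzymes lower, namely the thiolase gene acaa-2 (-0.63 ± 0.10), ard-1 (-0.42 ± 0.09) and the isovaleryl-CoA dehydrogenase gene ivd-1 (-0.31 ± 0.08), with decr-1.2 higher (1.49 ± 0.22). Of 6 genes of branched-chain amino acid breakdown 3 fell, led by dld-1, the dihydrolipoamide dehydrogenase gene (-1.14 ± 0.10). Of the 9 propionate genes hach-1 fell (-0.57 ± 0.13). Of the 20 peroxisomal genes 2 rose and 0 fell. Beside these lists, 8.54% of all genes fell and 10.4% rose. Summed oocyte markers were 6857 to 8437 CPM in F55H2.6 libraries, against 9866 to 10471 CPM in L4440_RM libraries, and all 8 of 8 fell. Muscle markers summed to 878 to 1171 CPM in F55H2.6 libraries, against 1260.5 to 1638 CPM in L4440_RM libraries, with 0 of 7 called. The part of these markers in the changes of the members was not tested.

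F25H2.5 libraries, with ndk-1 lowered, had 2 members higher and 2 lower, 5.13% of the members each way, beside 5.26% of all genes higher and 3.39% lower (8.65% in either direction). The thiolase gene kat-1 had 122, 118 and 113.9 CPM in F25H2.5 libraries, against 159, 172 and 151 CPM in L4440_RM libraries. It fell by 0.45 ± 0.09 (adjusted p = 0.00786), and it is the 1 call of the 4 that held under every setting. The dehydrogenase gene acdh-13 had 49.3, 47.6 and 51.1 CPM in F25H2.5 libraries, against 62.5, 63.1 and 56.8 CPM in L4440_RM libraries (-0.30 ± 0.07, adjusted p = 0.0132). In the other direction acdh-7 had 123, 126 and 111 CPM in F25H2.5 libraries, against 88.6, 99.8 and 99.1 CPM in L4440_RM libraries (0.32 ± 0.08, adjusted p = 0.0237). The hydratase-family gene ech-3 had 18.3, 19.4 and 17.7 CPM in F25H2.5 libraries, against 15.1, 14.4 and 14.1 CPM in L4440_RM libraries (0.35 ± 0.08, adjusted p = 0.0148). None of the 4 genes overlapped between the groups, but they were picked by the test on these same libraries. The neighbour of acdh-7 on chromosome X, acdh-10, stood at 0.29 ± 0.09 (adjusted p = 0.0581, and 0.00501 to 0.195 over the alternatives). DESeq2 called 5 members higher and 2 lower, beside 7.75% and 4.93% of the genes with an adjusted p. The fit of all 30 libraries called 6 and 2, beside 9.66% and 6.57% of all genes. The count was 1 without F25H2.5 replicate 2 and 2 without F25H2.5 replicate 1, with the shares of all genes not counted. Summed markers of 4 lists lay apart between the groups, while those of intestine and neuron overlapped. Intestine markers summed to 839 to 1017 CPM in F25H2.5 libraries, against 923 to 1100 CPM in L4440_RM libraries. Neuron markers summed to 312 to 316 CPM, against 302 to 341 CPM in L4440_RM libraries. Muscle markers summed to 975 to 1217 CPM in F25H2.5 libraries, against 1260.5 to 1638 CPM in L4440_RM libraries, and epidermis markers to 139 to 154 CPM, against 159 to 219 CPM in L4440_RM libraries, with 0 of 7 called in each list. Sperm markers summed to 25.7 to 31.1 CPM in F25H2.5 libraries, against 31.8 to 38.6 CPM in L4440_RM libraries, with 1 of 8 lower, and oocyte markers to 10965 to 11622 CPM, against 9866 to 10471 CPM in L4440_RM libraries, with 0 of 8 called. The part of these markers in the result was not tested.

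F25H2.5 and F55H2.6 were compared directly, since both had kat-1 and acdh-13 lower than the shared L4440_RM libraries. F25H2.5 libraries had 8 members higher and 1 lower than F55H2.6 libraries, 23.1% of the members beside 25.9% of all genes (14.4% higher, 11.5% lower). The gene acdh-7 had 123, 126 and 111 CPM in F25H2.5 libraries and 62.4, 65.5 and 59.6 CPM in F55H2.6 libraries (0.94 ± 0.08, adjusted p = 1.28e-06). Its neighbour acdh-10 differed the same way (0.62 ± 0.09, adjusted p = 0.000183), as did kat-1 (0.39 ± 0.09, adjusted p = 0.00637) and ech-4 (0.34 ± 0.06, adjusted p = 0.000391). In the lists, F25H2.5 libraries had hach-1 (-0.50 ± 0.13) and alh-8 (-0.28 ± 0.07) lower and pcca-1 (0.34 ± 0.08) higher than L4440_RM libraries. The regulators nhr-13 (0.54 ± 0.08) and nhr-10, a known activator of acdh-1 (0.38 ± 0.09), were higher, and atfs-1 was lower (-0.29 ± 0.07).

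In the libraries labelled R04E5.10, 0 members passed the edgeR test, beside 2.28% of all genes (1.56% higher, 0.715% lower), with 7 at an unadjusted p under 0.05. DESeq2 called 2 lower, beside 1.86% of the genes with an adjusted p. The fit of all 30 libraries called 3 lower, beside 2.73% of all genes. The member with the smallest p was acdh-1, with 86.7, 203 and 123 CPM in libraries labelled R04E5.10, against 510.4, 484 and 221 CPM in L4440_RM libraries. The groups did not overlap, although the spread within each is large. The log2 fold change was -1.56 ± 0.42, which did not pass the test (adjusted p = 0.102). Over the alternatives its adjusted p was 0.0035 to 0.316, with 0.00442 from DESeq2. In the lists lbp-8 fell (-1.14 ± 0.25, adjusted p = 0.0298).

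F26D12.1 libraries had 0 members past the edgeR test, beside 0.00633% of all genes in either direction, that is 1 of 15795. At an unadjusted p under 0.05 there was 1 member, and DESeq2 called 1 higher, beside 0.0317% of the genes with an adjusted p. That member was the oxidase gene acox-1.2, with 37.2, 41.9 and 41.5 CPM in F26D12.1 libraries, against 21.2, 26.0 and 25.3 CPM in L4440_RM libraries. Every F26D12.1 library was above every L4440_RM library. The log2 fold change was 0.74 ± 0.12 (adjusted p = 0.0628, and 2.32e-05 to 0.604 over the alternatives). In the direct pairs, acox-1.2 was lower than in F26D12.1 libraries by 0.96 ± 0.12 on the log2 scale in F25H2.5 libraries (adjusted p = 0.000278), by 0.93 ± 0.12 in F55H2.6 libraries (adjusted p = 9.25e-05) and by 0.93 ± 0.12 in libraries labelled R04E5.10 (adjusted p = 0.000606). These pairs reuse the same 3 F26D12.1 libraries, for which acox-1.2 was picked, so they are not separate evidence. The 3 neighbours of acox-1.2 in the row on chromosome I did not pass the test in F26D12.1 libraries against L4440_RM libraries.

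The other direct pairs of the RM set gave the following counts. F25H2.5 libraries had 2 members higher and 2 lower than libraries labelled R04E5.10, beside 4.01% of all genes higher and 4.14% lower (8.15% in either direction). The lower members were kat-1 (-0.32 ± 0.09) and acdh-13 (-0.42 ± 0.07), and the higher were acdh-7 (0.47 ± 0.08) and acdh-10 (0.36 ± 0.09). Against F26D12.1 libraries, F25H2.5 libraries had 4 members higher and 3 lower, beside 6.82% and 4.69% of all genes (11.5% in either direction). F55H2.6 libraries had 0 members higher and 7 lower than libraries labelled R04E5.10, beside 8.29% of all genes higher and 10.6% lower (18.9% in either direction). These 7 include kat-1 (-0.71 ± 0.09), acdh-13 (-0.60 ± 0.07), acdh-7 (-0.47 ± 0.08) and cpt-2 (-0.38 ± 0.08). Against F26D12.1 libraries, F55H2.6 libraries had 3 members higher and 7 lower, beside 12.3% and 10.6% of all genes (22.9% in either direction), with kat-1 at -0.71 ± 0.09. Libraries labelled R04E5.10 had 0 members higher and 2 lower than F26D12.1 libraries, beside 2.25% and 0.969% of all genes (3.22% in either direction), and the 2 were acox-1.2 and its neighbour acox-1.4 (-0.55 ± 0.11).

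**Figure D4:**
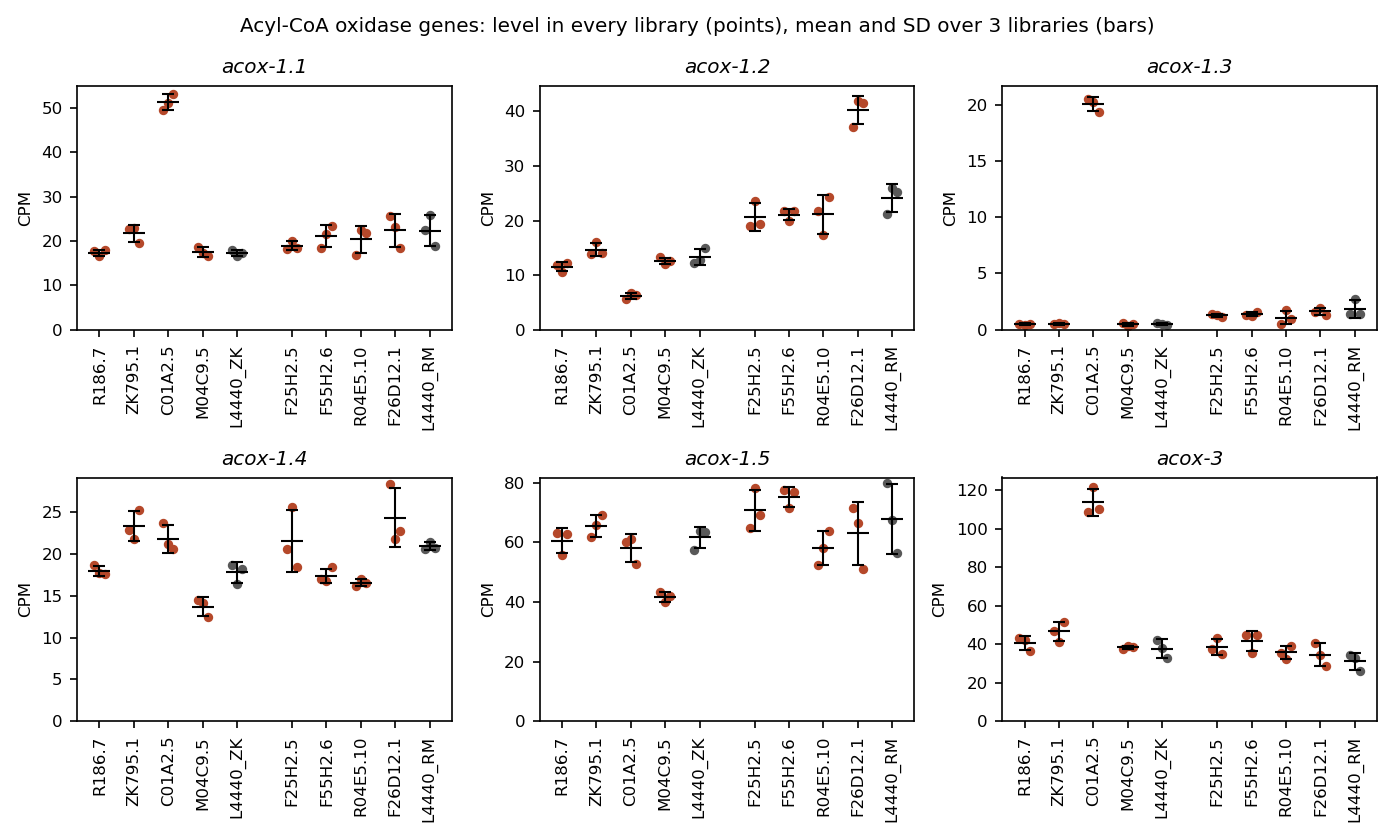
CPM of 6 acyl-CoA oxidase genes in each library (points), with the mean and SD of 3 libraries as bars, for the 4 RNAi groups left of their L4440 group in each set (RNAi in red, L4440 in grey). In F26D12.1 libraries acox-1.2 has 37.2 to 41.9 CPM, above the 21.2 to 26.0 CPM of L4440_RM libraries, and in C01A2.5 libraries acox-1.3 has 19.4 to 20.6 CPM, against 0.452 to 0.637 CPM in L4440_ZK libraries.

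C01A2.5 libraries, with tads-1 lowered, differed from L4440_ZK in most of the transcriptome. Here 18 members rose and 16 fell, 46.2% and 41.0% of the 39, beside 51.7% of all genes higher and 36.4% lower (88.1% in either direction). The median of all genes was 0.42 on the log2 scale and that of the members 0.06, with 15 members above the all-gene median and 24 below it. Scaling moved the all-gene median by -0.23 with relative log expression factors (16 members higher, 20 lower, beside 45.7% and 40.5% of all genes) and by 0.24 with library totals (22 higher, 12 lower, beside 58.0% and 30.7%). DESeq2 gave 15 higher and 20 lower, beside 43.0% and 40.0%. The calls of 27 of the 34 members held under all 13 alternative settings. Sperm markers summed to 1301 to 1451 CPM in C01A2.5 libraries, against 17.5 to 20.5 CPM in L4440_ZK libraries, and all 8 were higher. Oocyte markers summed to 3641 to 4052 CPM, against 10520.1 to 11853 CPM in L4440_ZK libraries, and all 8 were lower. Intestine markers summed to 1035 to 1280.2 CPM, against 632 to 722 CPM in L4440_ZK libraries, with all 8 higher. Muscle markers summed to 1263 to 1415 CPM in C01A2.5 libraries, against 824 to 885 CPM in L4440_ZK libraries, with 7 of 7 higher. Neuron markers summed to 325 to 350 CPM, against 252 to 283 CPM in L4440_ZK libraries, with 6 of 7 higher. Epidermis markers summed to 143 to 149 CPM, against 120.5 to 126 CPM in L4440_ZK libraries, with 3 of 7 higher and 2 lower. The part of these markers in the changes of the members was not tested.

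The largest rises in C01A2.5 libraries were members at the bottom of the order of levels in L4440_ZK libraries. The acyl-CoA dehydrogenase gene acdh-8 had 138, 145 and 161 CPM in C01A2.5 libraries, against 0.408, 0.390 and 0.190 CPM in L4440_ZK libraries (8.83 ± 0.15, adjusted p = 7.74e-25). With 16, 13 and 8 counts in the L4440_ZK libraries, the size of this fold rests on few reads. The acyl-CoA dehydrogenase genes acdh-5 and acdh-4 rose as well. The gene acdh-5 had 33.6, 33.3 and 38.3 CPM in C01A2.5 libraries, against 0.611, 0.480 and 0.476 CPM in L4440_ZK libraries (6.06 ± 0.13, adjusted p = 7.87e-28), and acdh-4 had 43.6, 39.1 and 44.9 CPM in C01A2.5 libraries, against 1.68, 1.59 and 1.57 CPM in L4440_ZK libraries (4.72 ± 0.10, adjusted p = 2.16e-27). The other acdh rises were acdh-2 (2.24 ± 0.34) and acdh-9 (0.82 ± 0.06).

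Of the 7 peroxisomal oxidase genes 5 rose and 1 fell in C01A2.5 libraries, beside 51.7% of all genes higher and 36.4% lower. The third of the row on chromosome I, acox-1.3, had 20.6, 20.2 and 19.4 CPM in C01A2.5 libraries, against 0.637, 0.510 and 0.452 CPM in L4440_ZK libraries (5.23 ± 0.14, adjusted p = 1.92e-25). The oxidase gene acox-1.6 had 27.4, 26.0 and 24.7 CPM, against 8.23, 7.23 and 8.52 CPM in L4440_ZK libraries (1.70 ± 0.08, adjusted p = 8.89e-19), and acox-1.1 had 49.6, 51.2 and 53.2 CPM, against 18.0, 16.6 and 17.4 CPM in L4440_ZK libraries (1.57 ± 0.07, adjusted p = 1.62e-19). A further oxidase gene, acox-3, averaged 113.6 ± 7.13 CPM in C01A2.5 libraries and 37.7 ± 4.78 CPM in L4440_ZK libraries (1.59 ± 0.09). Within the row of 4 adjacent genes the log2 fold changes were thus 1.57 for acox-1.1, -1.1 ± 0.09 for acox-1.2, 5.23 for acox-1.3 and 0.30 ± 0.08 for acox-1.4, the last lost with relative log expression factors (0.07) and with DESeq2. The next peroxisomal enzyme, maoc-1, rose by 1.18 ± 0.07. Of the 20 other peroxisomal genes 15 rose and 5 fell, with a median of 0.94, beside an all-gene median of 0.42. Those named by their small p were the thiolase gene daf-22 (1.42 ± 0.06), the dehydrogenase gene dhs-28 (1.23 ± 0.05), lonp-2 (1.60 ± 0.08) and the ABC transporter gene pmp-2 (1.26 ± 0.06).

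Among the carnitine palmitoyltransferase genes, cpt-3 had 49.7, 52.6 and 56.3 CPM in C01A2.5 libraries, against 8.38, 7.44 and 7.59 CPM in L4440_ZK libraries (2.76 ± 0.09, adjusted p = 1.91e-23). The paralogues cpt-4 (1.23 ± 0.11) and cpt-5 (0.53 ± 0.08) rose too, while cpt-2 (-0.55 ± 0.05) and cpt-1 (-0.33 ± 0.05, and -0.09 with library totals, where the call was lost) fell. In the ech family, ech-1.1 had 17.7, 19.5 and 20.9 CPM in C01A2.5 libraries, against 3.92, 4.23 and 3.81 CPM in L4440_ZK libraries (2.28 ± 0.09, adjusted p = 4.34e-20). Its more abundant paralogue ech-1.2 averaged 470.4 ± 10.7 CPM in C01A2.5 libraries and 507 ± 21.1 CPM in L4440_ZK libraries (-0.11 ± 0.06, adjusted p = 0.0785). The gene ech-8 rose by 1.04 ± 0.08, and its neighbour ech-9 by 0.41 ± 0.15, a call lost under 6 of the 13 settings.

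The falls in C01A2.5 libraries were led by acdh-1, which averaged 76.2 ± 1.02 CPM in C01A2.5 libraries and 263 ± 19.6 CPM in L4440_ZK libraries (-1.79 ± 0.10, adjusted p = 2.11e-10). Other members fell with it, among them ech-7 (-1.06 ± 0.09), acdh-3 (-0.99 ± 0.05), ech-2 (-0.88 ± 0.06) and ech-5 (-0.77 ± 0.05). So did kat-1 (-0.75 ± 0.05), hacd-1 (-0.74 ± 0.07), acdh-13 (-0.70 ± 0.05) and ech-6 (-0.40 ± 0.05). The larger families split, with 5 acdh genes higher and 6 lower, 4 ech genes higher and 5 lower, and 3 cpt genes higher and 2 lower. Of the 9 genes of propionate and methylmalonate breakdown 8 fell and 1 rose, beside 36.4% of all genes lower and 51.7% higher. The smallest p were those of mmaa-1 (-1.07 ± 0.05) and mmab-1 (-1.03 ± 0.06), both needed to supply the vitamin B12 cofactor of methylmalonyl-CoA mutase. Of 21 acyl-CoA synthetase genes 14 rose and 5 fell, and acs-10 (8.47 ± 0.13) and acs-6 (7.32 ± 0.13) rose and had averaged under 1 CPM in L4440_ZK libraries, as was the case for the dienoyl-CoA reductase genes decr-1.3 (7.68 ± 0.18) and decr-1.2 (6.85 ± 0.17). In the 5 members not called, acdh-10, cpt-6, acox-1.5, ech-1.2 and acdh-6, the log2 fold changes were between -0.11 and 0.32.

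**Figure D5:**
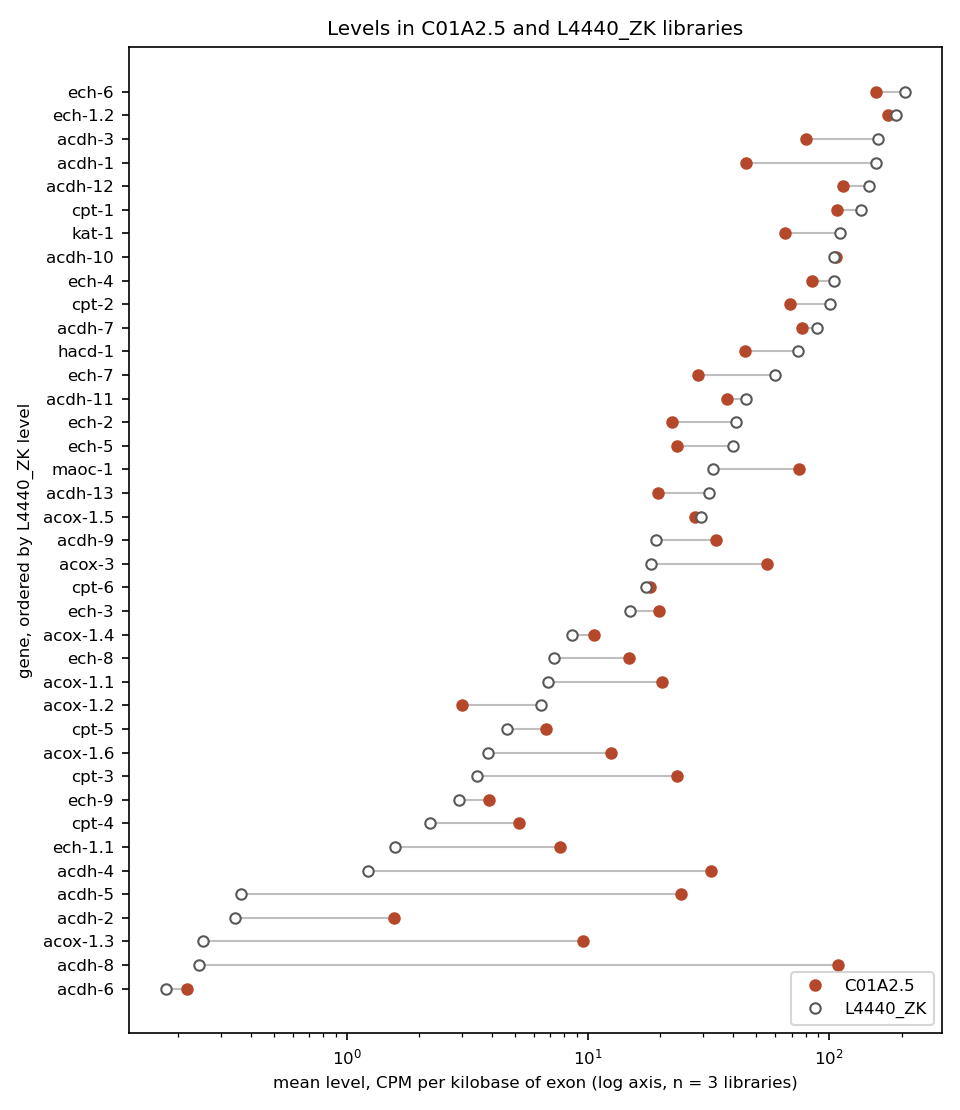
Mean level of each of the 39 genes in C01A2.5 libraries (filled) and in L4440_ZK libraries (open), in CPM per kilobase of exon on a log axis, n = 3 libraries each, ordered by the L4440_ZK level. The lowest members except acdh-6 lie far to the right in C01A2.5 libraries, with acdh-8 at a log2 fold change of 8.83, and the most abundant lie at or to the left of their L4440_ZK level.

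The level of acdh-1 was followed through all 10 groups, a choice made after its values had been seen. Its highest group mean in the ZK set was 3.27 times its lowest without C01A2.5 and 4.80 times with it, and in the RM set 2.95 times. The ZK groups averaged 300.4 ± 48.9 CPM in R186.7, 366 ± 35.3 in ZK795.1, 76.2 ± 1.02 in C01A2.5, 112 ± 5.71 in libraries labelled M04C9.5 and 263 ± 19.6 in L4440_ZK. The RM groups averaged 234.7 ± 22.0 CPM in F25H2.5, 254.5 ± 12.2 in F55H2.6, 138 ± 59.3 in libraries labelled R04E5.10, 394 ± 193 in F26D12.1 and 405 ± 160 in L4440_RM (SD, n = 3 each). The libraries themselves had 596, 372 and 212.5 CPM in F26D12.1 and 510.4, 484 and 221 CPM in L4440_RM. The SDs of F26D12.1 and L4440_RM were the largest in the RM set. Relative to the mean, the SD was 48.9% in F26D12.1, 43.1% in libraries labelled R04E5.10 and 39.4% in L4440_RM. No RM comparison of acdh-1 with L4440_RM passed the edgeR test.

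The 2 sets of L4440 libraries, which carry the same vector, differed in 18 members, 9 higher and 9 lower in L4440_RM libraries than in L4440_ZK libraries. That is 46.2% of the members beside 43.8% of all genes (23.9% higher, 19.9% lower), in a fit of all 30 libraries. Library totals gave 14 higher and 3 lower, beside 35.9% and 10.4% of all genes, with the all-gene median shifted by 0.13. The differences that held under each of the 13 alternative settings were acox-1.2 (0.77 ± 0.11), acox-1.3 (1.68 ± 0.30), acdh-8 (2.55 ± 0.51), acdh-4 (0.68 ± 0.16), acdh-7 (-0.41 ± 0.07), cpt-6 (-0.50 ± 0.10) and acdh-3 (-0.45 ± 0.10). On that scale acox-1.2 had 20.4, 25.1 and 24.7 CPM in L4440_RM libraries, against 12.7, 13.3 and 15.1 CPM in L4440_ZK libraries, with no overlap. Sperm markers summed to 30.6 to 37.3 CPM in L4440_RM libraries, against 17.8 to 21.3 CPM in L4440_ZK libraries, with 7 of 8 higher, and muscle markers to 1213 to 1580.3 CPM, against 854 to 913 CPM, with 7 of 7 higher. Intestine markers summed to 903 to 1062 CPM in L4440_RM libraries, against 657 to 734 CPM in L4440_ZK libraries, with 4 of 8 higher and 1 lower, and epidermis markers to 155 to 211 CPM, against 125 to 128 CPM in L4440_ZK libraries, with 6 of 7 higher. Oocyte markers lay the other way, at 9520.2 to 10241 CPM in L4440_RM libraries, against 10908 to 12049 CPM in L4440_ZK libraries, with 4 of 8 lower. Their part in these differences was not tested. The prefix and anything else that differs between the sets cannot be told apart, so levels are compared within a prefix in all other results.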

How the data were processed

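Read counts per gene were used as deposited by the authors. Per the submitters' processing notes, bcl2fastq 1.8.4 made the reads, STAR 2.4.1d placed them on WBcel235 and featureCounts 1.4.6-p4 counted them, and per the labels' protocols a TruSeq RNA v2 kit was used. Every column was matched to a library, leaving 0 unmatched, and the deposited RPKM table was not used. Gene symbols, positions and exon lengths came from Ensembl release 115 of the same build, which held 46449 of the gene identifiers.

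The fits used edgeR 4.0.16 (R 4.3.3), with filterByExpr for low counts, scaling by trimmed means of M values (factors 0.894 to 1.13) and the robust quasi-likelihood option. Each fit held the 15 libraries of 1 prefix (16495 genes in ZK, 15795 in RM, 10 residual degrees of freedom each), and L4440_RM was compared with L4440_ZK in a fit of all 30 (16867 genes). The edgeR steps were also run on simulated counts, where a small part of the genes was changed, as many raised as lowered. That run compared a treatment with L4440 only. It does not cover a comparison in which most genes differ, as in C01A2.5, the direct pairs or the tests for any difference among groups. A standard error was obtained from the log2 fold change and the root of its F. Alternatives were other scaling, no filter, DESeq2 1.42.0, other sets of libraries, a replicate block and leaving out each library.

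The members and lists were chosen with earlier results of these data known. Values in every library are given for up to 8 members per comparison past the threshold, smallest p first, and up to 4 genes per list. Values in every library of members that did not pass, the alternatives named with them, and acdh-1 across the groups were chosen after values were seen. Where groups are said not to overlap, the genes were picked by the test or after values were seen, on the same libraries. The share of all genes without overlap was not counted. In the lists acs-8, gcdh-1 and mccc-2 had no matching symbol. Treatments of a prefix share their 3 L4440 libraries. Replicate numbers are the order of a library within its group. At these depths a member under 1 CPM rests on few reads, and counting error adds to its spread.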

Additional observations from a re-analysis of the deposited data

How the results depend on the processing

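Counts of members past the threshold were recomputed under each alternative, with M04C9.5 and R04E5.10 named as the libraries are labelled. In the fit of all 30 libraries they were 0 for ZK795.1, 6 for M04C9.5, 8 for F25H2.5, 3 for R04E5.10 and 1 for F26D12.1, with 9 and 23 members varying among the ZK and the RM groups and 16 and 67 calls over their direct pairs, against 31 and 39 in the fits by prefix. DESeq2 gave 7 for F25H2.5, 2 for R04E5.10, 1 for F26D12.1 and 20 varying among the RM groups. The 6 libraries compared alone gave 7 for F25H2.5 and 6 for F55H2.6, replicates 1 and 2 of the RM groups alone gave 6 for F55H2.6, no filter gave 2 for R186.7 and 1 for F26D12.1, and relative log expression factors gave 1 for F26D12.1. The cause was not tested. Shares of all genes past the threshold also moved with the setting. They were not counted under the alternatives for the direct pairs or for any difference among groups. For the other comparisons they were not counted without a filter, with the replicate block or with replicates 1 and 2 of the RM groups alone. Nor were they counted without the C01A2.5 libraries or with 1 library left out. Counts of members under those settings thus stand without a share of all genes. Leaving out 1 library gave 4 to 8 for ZK795.1, 33 to 36 for C01A2.5, 10 to 12 for M04C9.5, 1 to 4 for F25H2.5, 6 to 10 for F55H2.6, 13 to 16 between the L4440 groups, and 0 for R186.7, R04E5.10 and F26D12.1. The members that varied were then 16 to 22 among the ZK and 10 to 15 among the RM groups, and the direct pairs held 27 to 38 and 27 to 43 calls. With library totals the sign turned for acdh-7 in C01A2.5 (0.03) and for cpt-1 between the L4440 groups (0.00). That of acdh-1 in F26D12.1, -0.04 with all libraries, lay between -0.47 and 0.26 when 1 library was left out, and was 0.16, 0.10, 0.01 and 0.26 in the 4 cases above 0. Replicate numbers are the order of libraries within a group, and the main fits held no term for them. Same-numbered libraries deviated together by correlations of -0.049 to 0.099 in ZK and -0.067 to 0.552 in RM. In RM 8 of 12 such correlations were over 0.1, and in ZK 0 of 12, and whether same-numbered RM libraries share a round was not tested. With the replicate block, 4 calls of single members were lost, among them acdh-3 in M04C9.5 (-0.14, adjusted p = 0.0602) and ech-7 in F55H2.6 (0.44). M04C9.5 then had 13 members past the threshold and F25H2.5 had 5. Depth limits the members under 1 CPM, whose folds rest on few reads.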
